A study of Homo sapiens with 15 samples.

Results

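RXRA, EGFR, RAC1, EP300 and CUL2 are genes that other studies reported as targets of miR-574-3p. They were followed here through every array probe that carries 1 of these gene names, which gave 9 probes of 5 genes among 41000 probes of 30484 gene names. mRNA of A549, an established lung adenocarcinoma cell line, was measured on 15 dual-color arrays, 3 of them for miR-574-3p and 12 for other miRNAs (3 each for miR-766, miR-181d, miR-629* and miR-565). On each array, cells transfected with a precursor oligonucleotide of the miRNA (miCENTURY OX miNatural, Cy5, called the overexpressing cells) were compared with cells transfected with an LNA antisense oligonucleotide against it (miRCURY KD, Cy3, called the antagomir cells). All oligonucleotides were given at 20 nM and RNA was taken 24 h after transfection, and no array held mock-transfected or untransfected cells. No dye was swapped, so dye and treatment cannot be told apart for any 1 miRNA, and only an effect of the dyes that is the same on every array drops out when miRNAs are compared. The labels number the arrays of a miRNA without stating whether they are separate transfections, so that p-values measure only the spread between these arrays, which may be technical. The arrays do not measure the miRNA itself. A bulk sample cannot tell fewer cells of a kind from less RNA per cell.

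A miRNA pairs through its seed, the bases near its 5′ end, mainly with sites in the 3′ ends of mRNAs, and lowers the level or the translation of those mRNAs. A target whose mRNA is degraded is lower where the miRNA is supplied than where it is blocked. A target that is only less translated keeps its mRNA level and cannot be seen on an mRNA array. The 5 genes act in separate processes. RXRA encodes retinoid X receptor alpha, a nuclear receptor that pairs with retinoic acid, vitamin D and other receptors. EGFR encodes the receptor tyrosine kinase for epidermal growth factor, a driver of growth in lung epithelium. RAC1 encodes a small GTPase that controls actin at the cell edge. EP300 encodes a histone acetyltransferase and transcriptional co-activator. CUL2 encodes the scaffold of the ubiquitin ligase that, with VHL, marks hypoxia-inducible factors for degradation.

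The mature miR-574-3p is shown first because its seed defines the sites by which a target would be recognized, with the seed (bases 2 to 8) in capitals, as RefSeq gives it (GRCh38.p14, chr4:38868092-38868113, plus strand). Mature miR-181d-5p, from 1 of the comparison miRNAs, is shown beside it because its seed differs (chr19:13874910-13874932, plus strand).
miR-574-3p: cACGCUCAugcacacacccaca
miR-181d-5p: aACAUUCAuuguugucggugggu
Of 2370 mature miRNA names in the RefSeq table, miR-574-3p alone had this seed. The 7 letters complementary to it, TGAGCGT, were in none of the 9 member probes and in 0.132% of the 41000 probes, read on the probe strand. Its 6-letter part GAGCGT was also in none of the 9 and in 0.366% of all probes. The probes are only 60 bases long and transcript sequences were not used here, so nothing follows about sites elsewhere in the transcripts.

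The probes lie, by the annotation in the array files (NCBI36), as follows. The RXRA probes A_23_P219176 (chr9:136468424-136468483) and A_23_P423197 (chr9:136471593-136471652) start 3169 bases apart. The EGFR probe is A_23_P215790 (chr7:55242335-55242394). RAC1 has A_23_P215406 (chr7:6409538-6409597) and 2 probes, A_32_P217709 and A_24_P194845, that each cover 4700 bases of genome with 60 bases of sequence and so cross a splice junction. EP300 has A_24_P7887 (chr22:39883200-39883259) and A_23_P40693 (chr22:39904979-39905038), which start 21779 bases apart. CUL2 has A_24_P252794 (chr10:35339281-35339340, minus strand), and the other 8 probes are on the plus strand. Whether a probe lies in an exon that codes for protein or in a UTR is not stated in the files. No other array probe shared an exact run of 30 bases with any of the 9. This match misses nearly identical probes, since it also counted none for the RAC1 junction probes, which differ at 3 of 51 overlapping bases.

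The sequence of the EP300 probe A_24_P7887 is shown because the clearest values below came from it. The junction probes of RAC1 are shown because they read nearly the same bases. Capitals mark the 3 positions at which the RAC1 probes differ within the 51 bases they share, namely T14C, T30G and T43C, with the base of A_32_P217709 first and positions counted from 1 at its 5′ end. Their positions are chr7:6393397-6398096 and chr7:6393406-6398105. A transcript can match only 1 of these probes at the 3 positions. Which of them RAC1 mRNA matches was not looked up.
EP300 A_24_P7887: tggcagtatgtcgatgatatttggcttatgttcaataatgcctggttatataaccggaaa
RAC1 A_32_P217709: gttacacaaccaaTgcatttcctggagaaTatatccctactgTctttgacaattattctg
RAC1 A_24_P194845: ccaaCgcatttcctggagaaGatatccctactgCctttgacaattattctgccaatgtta

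All 9 probes were well above background in both channels on all 15 arrays, and all 9 were among the 31357 probes tested. Over the arrays, the epithelial markers KRT7, KRT8, KRT18, KRT19, TACSTD1 (EPCAM) and CDH1 were well above background on all 15 by their brightest probe, while PTPRC, PECAM1, CDH5, COL3A1 and PDGFRB were so on 0 arrays. CD3E, CD68 and COL1A1 were above background on all 15 arrays in both channels, and VWF on 9 in Cy3 and 15 in Cy5. CDKN2A, which A549 is known to have lost, had 1 probe at a Cy3 signal of 331 to 507 and 1 probe above background on 0 arrays. The share of spots well above background was 69.6% to 73.7% in Cy3 and 69.0% to 76.2% in Cy5. Replicate 1 of miR-565 stood apart, with a median log2 ratio of 0.14 over the tested probes, against -0.0021 to 0.047 on the other 14 arrays. The lowest correlation of log2 ratios between replicates of a miRNA was 0.20. Precision is limited by the number of arrays.

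The first comparison asked whether the members were lower in the cells overexpressing miR-574-3p than in the cells with its antagomir, by the log2 of the processed Cy5 signal over the processed Cy3 signal. None of the 9 member probes passed an adjusted p of 0.05 (limma with an intensity trend, 15 arrays, Benjamini-Hochberg over 31357 probes), against 5.37% of all tested probes. With the slide as a block 5 of the 9 passed, against 36.5% of all probes. At an unadjusted p under 0.05 the count was 0 of 9, against 19.2% of all probes. None of the 9 met the thresholds of the study's methods either (ratio under 0.5, unadjusted p of at most 0.001 and antagomir signal of at least 20), which 29 probes or 0.0925% met. The median log2 ratio of the 9 probes was 0.053 with a range of -0.28 to 0.14, against a median of 0.0067 over all tested probes, and 2 of the 9 were below 0. For all 9 probes the log2 ratios of miR-574-3p overlapped those of the 12 other arrays, whereas the groups did not overlap for 4.07% of all probes.

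**Figure D1:**
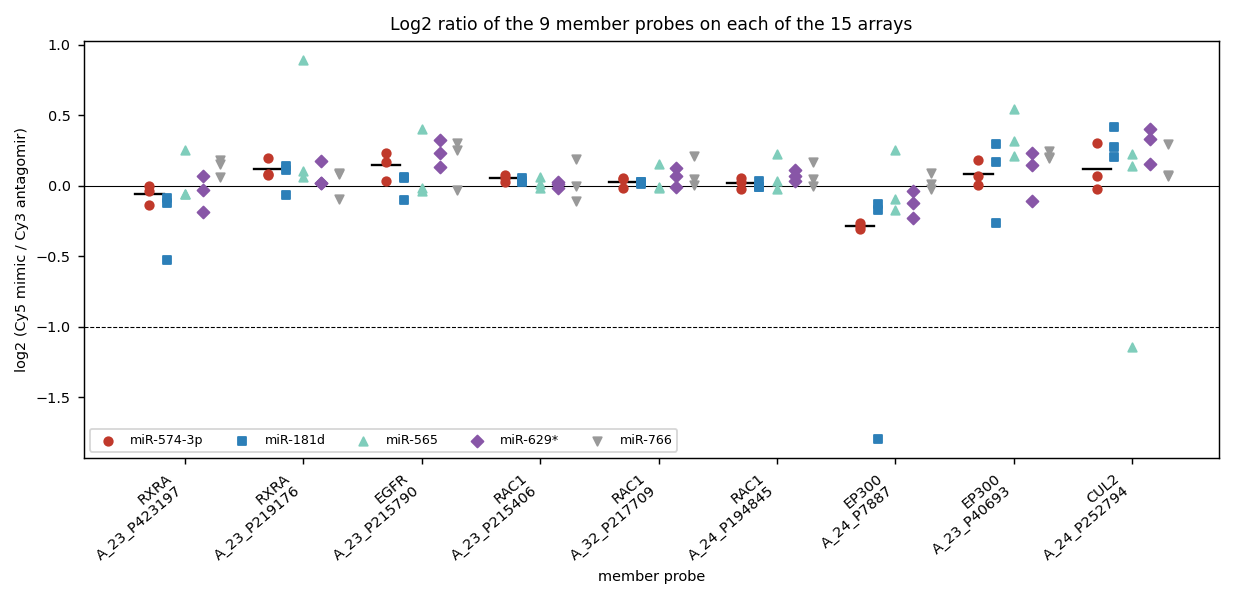
Log2 ratio of processed signal, Cy5 (overexpressing) over Cy3 (antagomir cells), on the vertical axis, of the 9 member probes (horizontal axis) on each of the 15 arrays; symbols give the miRNA, the black bar is the mean of the 3 miR-574-3p arrays and the dashed line a ratio of 0.5. The miR-574-3p arrays lie at -0.26 to -0.30 for EP300 A_24_P7887 and between -0.13 and 0.30 for the other 8 probes, while miR-181d replicate 1 (EP300 A_24_P7887, -1.80) and miR-565 replicate 1 (CUL2, -1.14) lie far from the rest.

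For RXRA, the brighter probe A_23_P423197 had log2 ratios of -0.13, 0.0019 and -0.039 on the miR-574-3p arrays. These values lay within the 12 other arrays, which ran from -0.53 to 0.26 with a median of -0.041. The mean was -0.057 (SE 0.084, 95% interval -0.24 to 0.12, adjusted p = 0.80, limma). The dimmer probe A_23_P219176 had log2 ratios of 0.20, 0.076 and 0.083, within -0.096 to 0.89 on the other arrays, and the highest of these was replicate 1 of miR-565. Its mean was 0.12 (SE 0.12, 95% interval -0.15 to 0.38, adjusted p = 0.69, limma), so the probes pointed to opposite sides of 0 and neither differed from it beyond its error. As fold changes the intervals were 0.85 to 1.09 for the former and 0.90 to 1.31 for the latter, so a fall to a ratio of 0.5 lay outside both. On the 13 arrays left without replicate 1 of miR-181d and replicate 1 of miR-565, the latter had the same mean with an interval of 0.0069 to 0.23 (adjusted p = 0.11, limma).

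For EGFR, the array mean of 10 spots gave log2 ratios of 0.032, 0.24 and 0.17 on the miR-574-3p arrays. All 3 were above 0, but 4 of the other 12 arrays lay above the highest of them and 4 below the lowest. The mean was 0.14 (SE 0.094, 95% interval -0.059 to 0.35, adjusted p = 0.46, limma), a fold of 1.11 with an interval of 0.96 to 1.27. Within an array the SD of the spots was 0.062 at the median, and the SD of the 3 array means was 0.10.

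RAC1 had the smallest SE of the log2 ratio among the members in the fit of 15 arrays, with Cy3 signals of 7036 to 15065 for the probe of 10 spots, A_23_P215406. Its log2 ratios on the miR-574-3p arrays were 0.024, 0.058 and 0.078, against -0.10 to 0.19 on the others. The mean was 0.053 (SE 0.047, 95% interval -0.047 to 0.15, adjusted p = 0.61, limma), which kept the fold between 0.97 and 1.11. The junction probes had means of 0.031 (SE 0.047) and 0.021 (SE 0.049), and their log2 ratios correlated over the 15 arrays with a Pearson r of 0.90, as a description of overlapping probes hybridized to the same RNA.

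EP300 had the only member probe that passed the test in a fit of the miR-574-3p arrays alone, though not in the fit of 15 arrays. Probe A_24_P7887 had log2 ratios of -0.30, -0.28 and -0.26 (mean -0.28 ± 0.021, SD, n = 3). All 27 spots kept on these arrays were below 0, but spots of an array are repeats of 1 sample. A ratio below 0 was not particular to miR-574-3p, since the 12 other arrays had a median of -0.11 and a highest value of 0.26. Of the 12 other arrays, 11 were above all 3 of these values and 1, replicate 1 of miR-181d, was far below at -1.80. On that array the Cy5 signal was 64.7, against 155 to 359 on the other 11, and the Cy3 signal was 224, within their 182 to 301. The fit over 15 arrays shares 1 estimate of spread, so this array widened the error of the miR-574-3p ratio to an SE of 0.23 (95% interval -0.78 to 0.21, adjusted p = 0.57, limma).

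Without replicate 1 of miR-181d the same ratio had an SE of 0.079 and an adjusted p of 0.062, without replicate 1 of miR-565 an adjusted p of 0.42, and without both, on 13 arrays, an SE of 0.043 (95% interval -0.38 to -0.19) and an adjusted p of 7.0e-04 (limma). In a fit of the 3 miR-574-3p arrays alone the adjusted p was 0.0083 (limma). The fits that leave out these arrays of the other miRNAs were chosen after seeing the data. Replicate 1 of miR-181d was marked out by its value at this same probe. Its median log2 ratio over all tested probes, 0.041, lay within the range of the other arrays. This array was also the lowest of all at RXRA A_23_P423197 (-0.53) and EP300 A_23_P40693 (-0.26), and the highest at CUL2 (0.42). It was at neither end for EGFR, the RAC1 probes and RXRA A_23_P219176. The smaller adjusted p without it thus rests on an array chosen by the value under test, and is no independent test. The background was 5.37% of all probes over 15 arrays, 5.10% without replicate 1 of miR-181d, 22.2% without replicate 1 of miR-565, 24.9% without both and 23.9% in the fit of 3 arrays. The fold was 0.82 in each of these fits by construction, since it is the mean of the same 3 miR-574-3p arrays. Other processing could change it. The log2 ratio was -0.235 (SE 0.158, adjusted p = 0.45, limma) with normexp and -0.154 (SE 0.329, adjusted p = 0.75, limma) with the slide as a block.

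The other EP300 probe, A_23_P40693, did not show this value. Its log2 ratios on the miR-574-3p arrays were 0.069, 0.18 and 0.0036, with a mean of 0.085 (SE 0.12, adjusted p = 0.78, limma), and 0.085 with an adjusted p of 0.49 on 13 arrays. On all 15 arrays it read a higher log2 ratio than A_24_P7887, and the log2 ratios of the probes correlated with a Pearson r of 0.77 over arrays that share their RNA and dye correction. Replicate 1 of miR-181d was lowest at both A_24_P7887 and A_23_P40693 (-1.80 and -0.26). Replicate 1 of miR-565 was highest at both (0.26 and 0.54), and these arrays weigh heavily in r. A_23_P40693 was a dim probe, at a Cy3 signal of 37.1 to 65.0 over the 15 arrays.

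**Figure D2:**
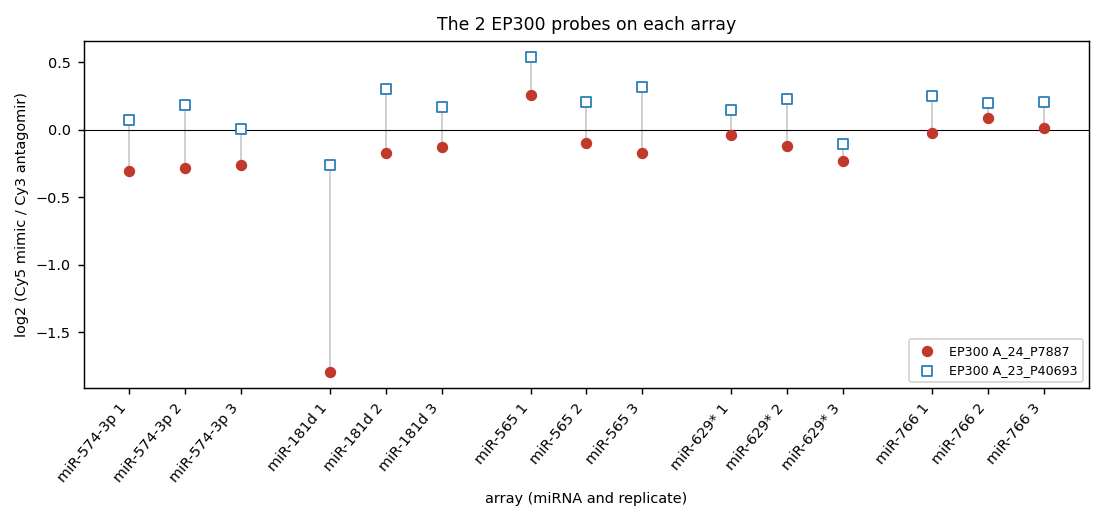
Log2 ratio (Cy5 over Cy3, vertical axis) of the EP300 probes A_24_P7887 (filled circles) and A_23_P40693 (open squares) on each of the 15 arrays (horizontal axis), with a gray line joining the probes of an array. On the miR-574-3p arrays the former is at -0.30, -0.28 and -0.26 and the latter at 0.069, 0.18 and 0.0036, and the former is lower on every array.

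For CUL2, the single probe had log2 ratios of -0.020, 0.30 and 0.071 on the miR-574-3p arrays, on both sides of 0. The mean was 0.12 (SE 0.19, 95% interval -0.29 to 0.53, adjusted p = 0.82, limma). The other arrays ran from 0.071 to 0.42 except replicate 1 of miR-565 at -1.14, where the Cy5 signal was 99.8, against 156 to 260 on the other 11. Without both arrays named above the mean was the same and its SE was 0.070 (adjusted p = 0.25, limma).

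The second comparison asked whether the miR-574-3p ratio differed from the mean of the other 4 miRNAs, which removes a dye effect shared by all arrays. None of the 9 probes differed at an adjusted p of 0.05, against 1.23% of all probes, and 0 of 9 had an unadjusted p under 0.05, against 10.9% (limma). The differences ran from -0.099 for EP300 A_23_P40693 (SE 0.13) to 0.028 for RAC1 A_23_P215406 (SE 0.052), with a median of -0.024, against -0.019 over all tested probes. For EP300 A_24_P7887 the difference was -0.083 (SE 0.26, adjusted p = 0.96, limma) over 15 arrays. It was -0.22 (adjusted p = 0.42) without replicate 1 of miR-181d, -0.050 (adjusted p = 0.94) without replicate 1 of miR-565, and -0.19 (SE 0.049, adjusted p = 0.045) without both. In the last of these fits, 6.17% of all probes were called. As above, replicate 1 of miR-181d was marked out by the value of EP300 A_24_P7887 itself. For CUL2 the difference went from -0.0036 (SE 0.21) over 15 arrays to -0.099 (SE 0.081, adjusted p = 0.53) over 13.

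**Figure D3:**
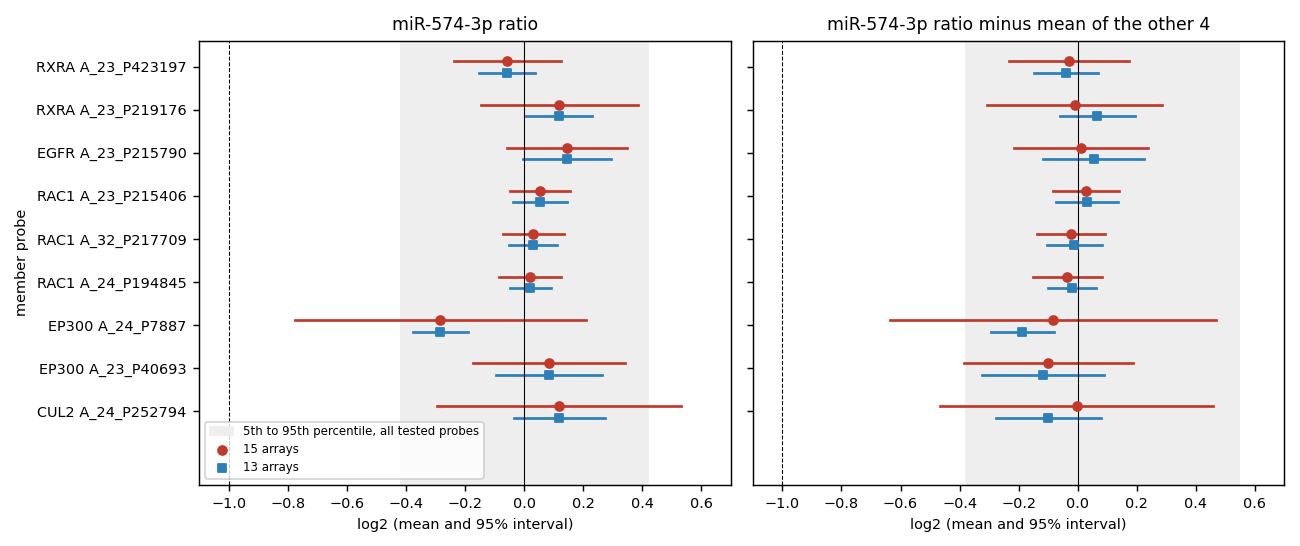
Mean log2 value with its 95% interval for the 9 member probes, for the miR-574-3p ratio (left) and its difference from the mean of the other 4 miRNAs (right), over 15 arrays (red circles) and over 13 arrays without replicate 1 of miR-181d and of miR-565 (blue squares). The gray band spans the 5th to 95th percentile of all tested probes (-0.42 to 0.42 left, -0.38 to 0.55 right), the dashed line is a ratio of 0.5, and only EP300 A_24_P7887 on 13 arrays has an interval below 0.

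The miR-574-3p arrays shared slide 2 with 2 arrays of miR-565 and slide 3 with the 3 arrays of miR-629*, so that the difference can be read within a slide. For EP300 A_24_P7887 the miR-574-3p log2 ratio was lower than that of miR-565 by 0.16 on the log2 scale within slide 2, at -0.29 against -0.13. Within slide 3 it was -0.26 against -0.13 for miR-629*, a difference of -0.13. The arrays left out above, replicate 1 of miR-181d and of miR-565, were both on slide 1. The other EP300 probe also had differences below 0, at -0.14 and -0.088. EGFR had 0.16 and -0.064, CUL2 -0.043 and -0.22, RXRA A_23_P423197 -0.011 and 0.0086, and the RAC1 probes -0.012 to 0.071 over both slides. With 1 or 2 miR-574-3p arrays a slide, these values have no test of their own.

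A fit with the slide as a block used 12 arrays, since miR-766 was alone on its slide, and by its construction took the offset of slide 1 from replicate 1 of miR-565. In it the ratio fitted for miR-574-3p passed the test for RXRA A_23_P219176 (0.39, SE 0.062, adjusted p = 0.0017), EGFR (0.29, SE 0.070, adjusted p = 0.013), RAC1 A_23_P215406 (0.075, SE 0.024, adjusted p = 0.039) and RAC1 A_24_P194845 (0.094, SE 0.029, adjusted p = 0.032), all above 0 (limma). CUL2 turned sign and passed, at -0.32 (SE 0.092, adjusted p = 0.025, limma). The fit sets each ratio at the mean of slides 1 to 3, though no miR-574-3p array was on slide 1. Among these values, only that of RAC1 A_23_P215406 lay within the range of the miR-574-3p arrays. For RXRA A_23_P219176 the highest of these arrays was 0.20, and for CUL2 the lowest was -0.020. So these are not ratios that the miR-574-3p arrays read. The difference from the other miRNAs also passed for RXRA A_23_P219176, which turned to 0.32 (SE 0.076, adjusted p = 0.014), and for CUL2, at -0.58 (SE 0.11, adjusted p = 0.0049), against 29.5% of all probes (limma). Within slides 2 and 3 the CUL2 differences were the -0.043 and -0.22 given above, and those of RXRA A_23_P219176 were 0.054 and 0.0089.

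The ratio sets 2 treated populations against each other, so each channel was also compared between miRNAs with the dye held the same, after quantile normalization within the dye. In the antagomir channel (Cy3), 3 of 9 member probes differed from the other antagomirs at an adjusted p of 0.05, against 8.69% of all probes (limma). EP300 A_24_P7887 was higher (4.23% of all probes were), and EGFR and RXRA A_23_P219176 were lower (4.46% of all were). The members' median was 0.029, against 0.0094 over all probes, so the members did not move one way.

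For EP300 A_24_P7887, the processed Cy3 signals were 258, 318 and 308 in the miR-574-3p antagomir cells, against 182 to 301 with a median of 252 in the other 12 antagomir samples. After normalization the log2 signals were 8.09, 8.20 and 8.19, all above the 7.84 to 8.05 of the 12 others. Groups apart upward were seen for 3.57% of all probes, and apart in either direction for 6.21%, and this was the only member probe so placed. The difference was 0.20 (SE 0.037, 95% interval 0.12 to 0.28, adjusted p = 0.0041, limma), a fold of 1.15 with an interval of 1.09 to 1.22. It kept an adjusted p under 0.05 in 13 of 14 other settings, with differences of 0.16 to 0.24, and had an adjusted p of 0.10 with the slide as a block. Here and for the probes below, the 14 settings include the fits without replicate 1 of miR-181d, of miR-565 and of both. Those fits were chosen after seeing the data. Some other settings changed only the error or the adjustment and not the difference. Within slides 2 and 3 the Cy3 difference was 0.12 and 0.24. The other EP300 probe had Cy3 signals of 52.3, 54.0 and 65.0, against 37.1 to 61.5, and a normalized difference of 0.11 (SE 0.066, adjusted p = 0.40, limma).

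For EGFR, the Cy3 signals were 170, 198 and 190, against 138 to 251 with a median of 209. The normalized log2 signals of 7.50, 7.51 and 7.50 were below 11 of the 12 other arrays, the exception being 1 array of miR-766 at 7.43. The difference was -0.15 (SE 0.038, adjusted p = 0.027, limma), a fold of 0.90 with an interval of 0.85 to 0.95. Its sign was the same in all 14 other settings, but the adjusted p was under 0.05 in 7 of them, with a highest value of 0.12. It was above the threshold without any 1 of the miR-574-3p arrays, and within slides 2 and 3 the differences were -0.25 and -0.074. The Cy5 signal of EGFR differed to about the same extent, by -0.14 (SE 0.096, adjusted p = 0.98, limma), and the ratio differed from that of the other miRNAs by 0.012 (SE 0.11).

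For RXRA A_23_P219176, the Cy3 signals were 266, 323 and 308, against 232 to 399 with a median of 328. The normalized difference was -0.12 (SE 0.034, adjusted p = 0.047, limma), a fold of 0.92, and it had an adjusted p under 0.05 in only 3 of 14 other settings (highest 0.47). The other RXRA probe, A_23_P423197, had Cy3 signals of 2679, 2970 and 2979, against 2113 to 3815, and a difference of -0.0078 (SE 0.050, adjusted p = 0.95, limma). The RAC1 probes had Cy3 differences of -0.0099 to 0.035 and CUL2 one of 0.078 (SE 0.078, adjusted p = 0.64, limma).

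**Figure D4:**
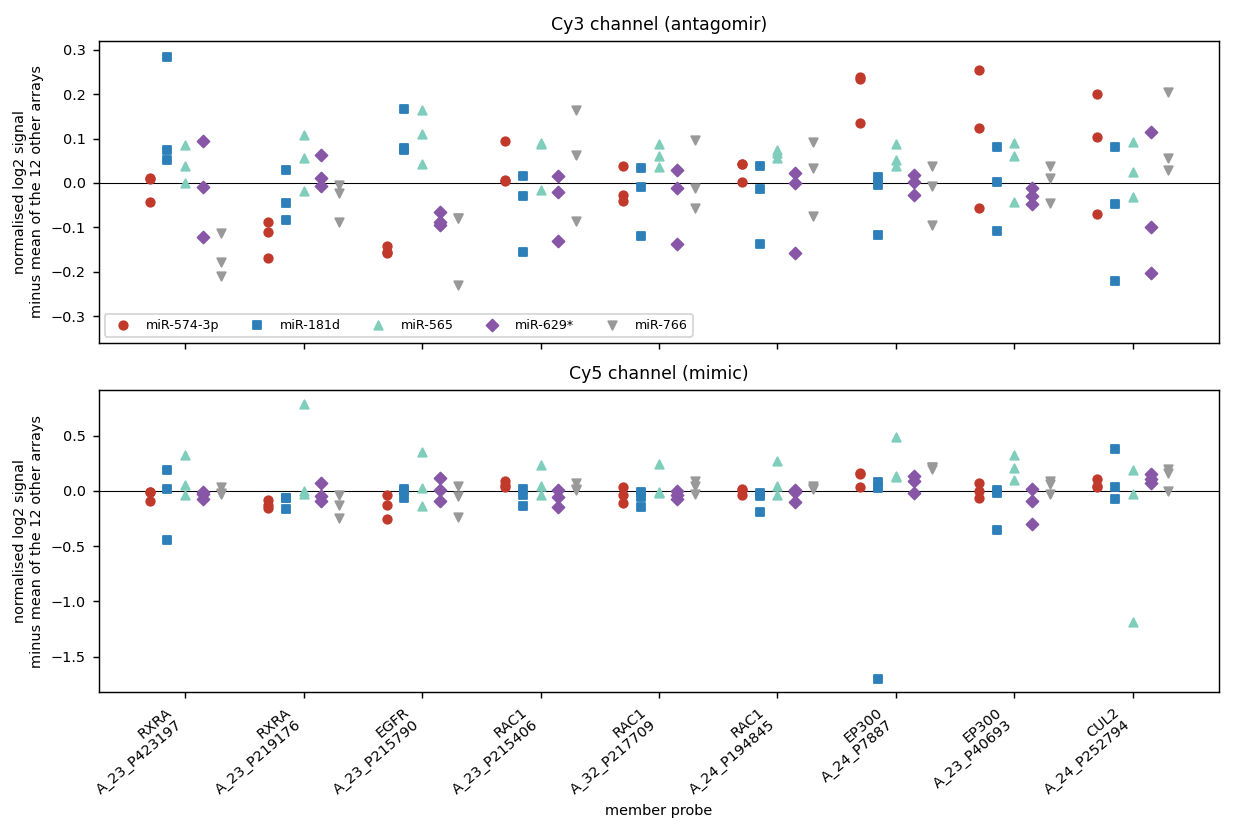
Quantile-normalized log2 signal of each member probe in the Cy3 (antagomir, top) and Cy5 (overexpressing, bottom) channel of the 15 arrays, with the mean of the 12 arrays of the other miRNAs subtracted; the vertical scales of the panels differ. In Cy3 the miR-574-3p arrays lie above all others for EP300 A_24_P7887 and below 11 of 12 for EGFR, and in Cy5 miR-181d replicate 1 and miR-565 replicate 1 hold the most distant points.

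In the overexpressing channel (Cy5), 0 of 9 member probes differed from the other overexpressing samples, and 0% of all tested probes did (limma, adjusted p under 0.05). At an unadjusted p under 0.05 the counts were 0 of 9 and 3.25% of all probes, and the groups were apart for 0 of 9 and for 0.485% of all probes. At this precision no member signal in the cells given miR-574-3p could be told from that under the other 4 miRNAs. For EP300 A_24_P7887 the Cy5 signals were 209, 261 and 257, against a median of 234 on the other arrays, and the difference was 0.12 (SE 0.28, 95% interval -0.49 to 0.73). It was 0.0027 (SE 0.040, 95% interval -0.086 to 0.091, adjusted p = 0.99, limma) on 13 arrays. On those 13 arrays the Cy3 difference of the probe was 0.19 (SE 0.035, adjusted p = 0.0098, limma), so the lower ratio went with a higher antagomir signal rather than with a lower overexpressing signal. The CUL2 Cy5 signals were 199, 238 and 222, and the difference was 0.062 (SE 0.21) on 15 arrays and -0.0099 (SE 0.056) on 13.

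The genes that work with the members were read from lists of 81 genes, 80 of which were on the array and 78 tested, each by its brightest probe. On the miR-574-3p arrays 1 gene was lower and 4 higher in the overexpressing cells, 6.41% of those tested, against 5.37% of all probes, with a median log2 ratio of 0.026. None of the 78 differed from the mean of the other miRNAs, and none differed in Cy5. In Cy3, 3 were lower and 5 higher, 10.3% of those tested, against 8.69% of all probes.

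Among 15 tested receptors that pair with RXRA or resemble it, 0 had a called ratio, and the median was 0.082. Among 16 tested ERBB receptors, ligands and adaptors, SOS1, the exchange factor that links EGFR to RAS, had a log2 ratio of 0.66 (SE 0.14, adjusted p = 0.015, limma). Its difference from the other miRNAs was 0.65 (SE 0.15, adjusted p = 0.068), its Cy3 signal differed from the other antagomirs by -0.90 (SE 0.10, adjusted p = 1.6e-04, limma), and its mean signals were only 22.3 in Cy3 and 35.2 in Cy5. Among 21 relatives, regulators and effectors of RAC1, WASF1, a WAVE protein that drives actin branching, had a log2 ratio of 0.30 (SE 0.063, adjusted p = 0.016, limma). Among 11 EP300 relatives and partners, NCOA1, a nuclear receptor co-activator, had a log2 ratio of 0.26 (SE 0.055, adjusted p = 0.016, limma). The differences from the mean of the other miRNAs were only 0.050 for WASF1 (SE 0.070, adjusted p = 0.92, limma) and 0.12 for NCOA1 (SE 0.062, adjusted p = 0.55, limma).

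Among 15 genes of the CUL2 ligase, its relatives and its substrates, 1 was lower and 1 higher. UBE2M, the enzyme that passes NEDD8 to cullins, had a log2 ratio of -0.37 (SE 0.062, adjusted p = 0.0042, limma). EPAS1, 1 of the hypoxia-inducible factors that VHL marks, had 0.21 (SE 0.055, adjusted p = 0.042, limma). Their differences from the mean of the other miRNAs were 0.012 and -0.014 (adjusted p = 0.98 each, limma). The subunit RBX1, picked after its values were seen, had a Cy3 signal above that of the other antagomirs by 0.24 (SE 0.030, adjusted p = 2.4e-04, limma), with a ratio of -0.15 that was not called (adjusted p = 0.27). It was 1 of 3 genes of this list called in Cy3, all higher, which is 20% of the 15 tested, against 8.69% of all probes.

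Across the 15 arrays, the log2 ratio of EP300 A_24_P7887 was most like that of HDGF (Pearson r = 0.96) and KLF10 (0.955) among 15690 genes, and that of CUL2 was most like TPP2 and RG9MTD2 (0.98 each). The 95th percentile of r over all genes was 0.51 for EP300 and 0.94 for CUL2, so for CUL2 many genes were about as alike. RXRA was most like WNT3 (0.94) and KIAA0100 (0.91), EGFR most like ENTPD7 and NPAS2 (0.90 each), and RAC1 most like EIF3S9 (0.84) and MCM3AP (0.82). These values describe arrays that share slides and a dye orientation, and the arrays that stand apart weigh heavily in them.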

How the data were processed

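The authors deposited the Feature Extraction 9.5.3.1 output of 15 dual-color arrays (3 for each of 5 miRNAs). The deposited intensity values are processed signals, corrected for background and normalized between dyes, and uncorrected mean and background signals. The deposited log10 ratio and its error score, which the authors' software computed, served only alternatives, as did the series table, which equals the log10 ratio. Control spots (1639 an array) and 2296 outlier spots were left out, and the spots of a probe were averaged. The log2 ratio of the processed signals was fitted in limma 3.58.1 (R 4.3.3), with 1 coefficient per miRNA over 15 arrays and an intensity trend. Benjamini-Hochberg adjustment covered 31357 probes, those that were well above background (Cy3 or Cy5) on 3 or more arrays. Each channel was quantile normalized within its dye before comparison with the 12 other arrays. The procedure was tested on simulated data. The members and the gene lists were chosen with earlier results of these data known. All member probes are described, and a list gene is named when its brightest probe was called in the ratio or the difference, up to 3 a list. RBX1 was named after its values were seen. For likeness, the 2 genes with the highest r per member were taken. Sequences are from RefSeq (GRCh38.p14) and the array files (NCBI36). The Rosetta Resolver step of the study was not used here. Some marker results are not reported here.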

Additional observations from a re-analysis of the deposited data

How the results depend on the processing

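No member probe was called in the ratio, the difference or Cy5 with outlier spots kept, no filter or the filter on both channels. The same held with no trend, median centring and normexp with loess. With the series table and the error-weighted mean, which give ratios only, 0 were called in the ratio and the difference. Cy5 was not fitted in those 2 settings. By the thresholds of the methods 0 were called in each of these settings, and 0 at a signal minimum of 100. Called in Cy3 were 1 probe with normexp, 1 with median scaling and 1 (lowest and highest) without any single miR-574-3p array, and 0 with the slide block. The slide block left out miR-766 and, by its construction, took the offset of slide 1 from replicate 1 of miR-565. It called 5 member probes in the ratio (36.5% of all probes) and 2 in the difference (29.5%), and 39 and 28 list genes. The fit of 3 arrays called 1 member probe. The fit of 13 arrays, chosen after seeing the data, called 1 in the ratio, 1 in the difference, 1 in Cy3, and 29 and 7 list genes. List genes called in the ratio were 0 to 2 without single miR-574-3p arrays, and 1 (series table), 2 (error-weighted) and 1 (replicate block) in the difference.

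Replicate numbers were not taken to pair these arrays, and the labels do not say whether they do. For replicates 1, 2 and 3, 6, 4 and 3 of 10 pairs of same-numbered arrays correlated above 0.1. The median r was 0.16, 0.075 and -0.038. For 6 of 15 arrays, the most similar array of another miRNA had the same number. These counts have no chance level beside them and cannot show that pairing is absent. With the replicate block, 0 member probes were called in the ratio, the difference and Cy5 and 2 in Cy3, and 5.19% of all probes in the ratio.

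These signs turned, and the cause was not tested. With the slide block, the ratio became 0.047 for RXRA A_23_P423197 and -0.32 for CUL2 (adjusted p = 0.025, limma), and the difference 0.16 for RXRA A_23_P423197, 0.32 for RXRA A_23_P219176 (adjusted p = 0.014, limma), 0.062 for RAC1 A_32_P217709, 0.067 for RAC1 A_24_P194845, 0.17 for EP300 A_24_P7887 and 0.036 for EP300 A_23_P40693. The Cy5 difference with that block became 0.10 and 0.19 for RXRA A_23_P423197 and A_23_P219176, 0.015 for EGFR (from -0.14), 0.088 and 0.12 for RAC1 A_32_P217709 and A_24_P194845 and -0.46 for CUL2. With normexp, the ratio of RAC1 A_32_P217709 became -0.0019, the difference of RXRA A_23_P219176 0.017 and of CUL2 0.016, and the Cy5 value of EP300 A_23_P40693 -0.027. With median centring, the difference became 0.015 for RXRA A_23_P219176, 0.0013 for RAC1 A_32_P217709 and 0.022 for CUL2.

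Without single miR-574-3p arrays, the difference ranged from -0.059 to 0.0094 (RXRA A_23_P423197), -0.050 to 0.011 (RXRA A_23_P219176), -0.034 to 0.068 (EGFR) and -0.097 to 0.066 (CUL2). The Cy3 difference ranged from -0.018 to 0.0097 (RXRA A_23_P423197) and -0.033 to 0.0050 (RAC1 A_32_P217709), and the Cy5 difference from -0.017 to 0.010 (RAC1 A_24_P194845) and -0.031 to 0.036 (EP300 A_23_P40693).

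Leaving out the arrays that stand apart was chosen after seeing the data. Without replicate 1 of miR-181d, the difference of RXRA A_23_P423197 was -0.065 and that of CUL2 became 0.012 and the Cy5 value 0.0018 for RAC1 A_24_P194845, -0.027 for EP300 A_24_P7887 and -0.025 for EP300 A_23_P40693. Without replicate 1 of miR-565, the difference of RXRA A_23_P219176 became 0.057 that of CUL2 was -0.11 and the Cy5 value was 0.016 for RAC1 A_24_P194845 and -0.043 for CUL2. Without both, the difference was 0.067 for RXRA A_23_P219176, the Cy3 value of RXRA A_23_P423197 was -0.019, and the Cy5 value was 0.024 for RAC1 A_24_P194845, -0.011 for EP300 A_23_P40693 and -0.0099 for CUL2.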
